A study of Mus musculus with 3 samples.

Results

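Sox9, Onecut1, Onecut2, Ehf and Elf3 are transcription factors tied to duct epithelium, and they were taken by symbol as 5 of the 31053 genes in the deposited feature list. Their levels, detection and co-detection were described in duct-like, delta-like, beta-like, alpha-like, gamma-like and acinar-like cells of islets from 3 mice. The donors were untreated, non-diabetic female NOD-SCID mice aged 10 to 11 weeks, a strain that lacks mature T and B cells. Each mouse gave 1 library of droplet-based sequencing of transcript 3′ ends, and the 3 libraries form 1 group, so every comparison lies between cell classes of the same mice.

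The pancreatic duct tree carries enzyme-rich fluid away from the acini, and a few duct cells come along when islets are isolated. Sox9, an HMG-box factor, marks the common progenitors of the embryonic pancreas and stays on in ducts after endocrine and acinar cells have formed. Onecut1 and its relative Onecut2 carry a cut domain and a homeodomain, and Onecut1 acts in the embryonic pancreas upstream of endocrine and duct differentiation. Ehf and Elf3 belong to the epithelial branch of the Ets family, whose members bind DNA around a GGAA core.

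Promoter sequence was at hand in the RefSeq table (GRCm38.p6) for 2 of the 5 genes, Onecut1 and Elf3. It is shown because these genes were both highest in duct-like cells while their upstream regions look unlike each other. Each sequence reads 5′ to 3′ on the gene's strand and ends where the annotated gene starts. Capitals mark every match, on either strand, to the Ets core GGAA (TTCC on the other strand) or to ACAAT, a short form of the Sox site.

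Onecut1, chr9:74861671-74861920, plus strand: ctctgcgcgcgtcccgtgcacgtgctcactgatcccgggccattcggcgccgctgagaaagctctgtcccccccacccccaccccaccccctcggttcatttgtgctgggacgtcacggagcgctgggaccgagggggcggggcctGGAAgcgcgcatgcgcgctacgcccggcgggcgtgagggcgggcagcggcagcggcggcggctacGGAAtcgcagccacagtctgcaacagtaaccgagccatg

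Elf3, chr1:135258569-135258722, minus strand: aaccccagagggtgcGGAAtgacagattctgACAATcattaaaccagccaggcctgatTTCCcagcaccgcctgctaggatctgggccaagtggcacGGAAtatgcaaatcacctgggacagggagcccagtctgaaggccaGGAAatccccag

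The Onecut1 stretch has 250 bases, 71.6% G or C and 31 CpG dinucleotides, against a median of 52.4% G or C over 32851 mouse promoters of that length. The Elf3 stretch has 154 bases, 55.8% G or C and 3 CpG dinucleotides, against a median of 50.6% for that length. GGAA occurred 2 times upstream of Onecut1, and 3 times and once as TTCC upstream of Elf3. These letters are common, as 93.4% of all promoters held them within 250 bases and 82.5% within 154. ACAAT occurred 1 time, upstream of Elf3, and was held by 19.0% of promoters within 154 bases. Neither stretch held ATTGAT, the core of the Onecut site, which 6.72% of promoters held within 250 bases and 4.52% within 154. None of the matches was tested for binding, and no match overlapped another.

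The genes lie on 5 chromosomes of GRCm38, the assembly also called mm10. Sox9 (ENSMUSG00000000567) spans bases 112782224 to 112787760 of chromosome 11 on the plus strand in 3 exon blocks. Onecut1 (ENSMUSG00000043013) spans 74861921 to 74891781 of chromosome 9 on the plus strand, and Onecut2 (ENSMUSG00000045991) spans 64340020 to 64400987 of chromosome 18 on the plus strand. Ehf (ENSMUSG00000012350) spans 103263433 to 103303278 of chromosome 2 and Elf3 (ENSMUSG00000003051) spans 135253575 to 135258568 of chromosome 1, both on the minus strand. The long noncoding gene Gm20649 shares 29556 bases of Onecut1's strand, so the split of reads between these genes is uncertain. Gm20649 itself had 51 unique molecular identifiers (UMIs, counts of captured molecules) in duct-like cells, 1 in acinar-like cells and 0 in the endocrine classes. The antisense gene Gm26642 covers all 4994 bases of Elf3 and had 0 UMIs in the 6 classes, and whether counting used the strand is not given in the sources used here.

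The libraries of mice 1, 2 and 3 held 32389170, 48076507 and 57849496 UMIs, and filters kept 1090, 2609 and 3474 cells. Cells were clustered without the 5 genes, and clusters were named from marker lists that do not hold them. The duct-like class was 1 cluster of 372 cells (97, 148 and 127 in mice 1, 2 and 3), led by Spp1, the osteopontin gene, ahead of Msmp, Cp and Clu. Its size depended on the clustering, mostly in mice 1 and 2. Clusters from the 2000 most variable genes gave 219 duct-like cells, with 33, 62 and 124 in mice 1, 2 and 3. The shares of duct-like cells given below rest on the class of 372 cells. Krt19, a duct keratin, stood at 308, 353 and 635 counts per 1e6 UMIs (CPM) in duct-like cells, against at most 1.68 CPM in delta-like, beta-like, alpha-like and gamma-like cells. All 8 duct markers were detected in duct-like cells of every mouse, but not all were highest there. Tspan8 stood at 450, 609 and 509 CPM in gamma-like cells of mice 1, 2 and 3, against 51.9, 106 and 94.0 CPM in duct-like cells. Krt7 stood at 111, 186 and 144 CPM in gamma-like cells, against 105, 116 and 225 CPM in duct-like cells. The delta-like values of both are given below. The other classes held 990 delta-like, 734 beta-like, 1447 alpha-like, 271 gamma-like and 158 acinar-like cells, of which mouse 2 gave 12 gamma-like and mouse 3 gave 17 acinar-like cells. Mice 1 and 2 shared 148 cell barcodes, of which 14 were kept in both, and 9 and 13 were shared in the other pairs. Without the kept cells of shared barcodes, the summed Sox9 level of duct-like cells was 592.1 CPM, against 591.6 CPM with them.

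All 5 factors were highest in duct-like cells, but in 3 different patterns. Sox9 and Onecut1 had most of their UMIs in duct-like cells, Ehf was not told apart between duct-like and delta-like cells, and Onecut2 and Elf3 kept a low level in endocrine cells. In edgeR's quasi-likelihood test over 11924 genes, all 5 were higher in duct-like than in beta-like, alpha-like and gamma-like cells, and 4 of 5 were higher than in delta-like and than in acinar-like cells (FDR 0.05). Of all genes tested, 32.1% were called higher in duct-like than in beta-like cells, 29.8% than in alpha-like, 25.2% than in gamma-like, 30.1% than in delta-like and 14.9% than in acinar-like cells. None of the 5 was called lower in duct-like cells, against 33.2%, 33%, 26.5%, 31% and 12.4% of all genes in the same order. Onecut1 passed the filter on low counts through duct-like cells alone, so that its calls were set by that filter. Among the other 4, which also passed in other classes, 4 were called higher in duct-like than in beta-like, alpha-like and gamma-like cells, and 3 than in delta-like and than in acinar-like cells. The p-values cover the spread of class differences over 3 mice, not the error of forming the classes from the same cells.

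**Figure D1:**
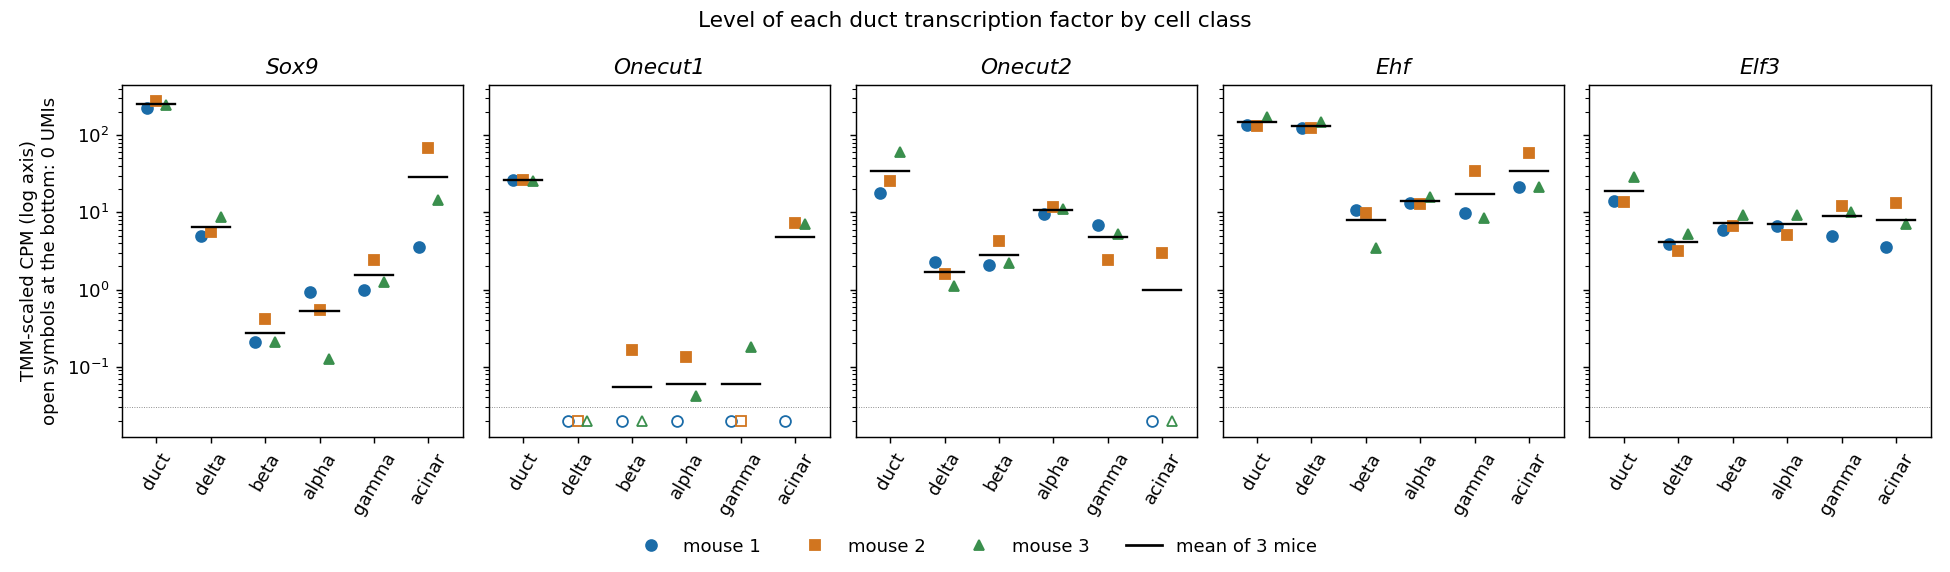
Level of each factor in 6 cell classes, as TMM-scaled CPM of UMIs summed per mouse on a log axis, with 1 symbol per mouse and a bar for the mean of 3 mice; open symbols under the dotted line mark 0 UMIs. All 3 duct-like symbols lie above those of every other class for Sox9, Onecut1, Onecut2 and Elf3, while for Ehf the delta-like symbols (123 to 147) overlap the duct-like ones (132 to 173).

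Sox9 was read in duct-like cells from 646, 1159 and 1069 UMIs in mice 1, 2 and 3, or 508, 629 and 613 CPM. Its UMIs were 15, 25 and 108 in delta-like cells, 1, 5 and 2 in beta-like cells and 6, 4 and 3 in alpha-like cells. The duct-like class, 372 of the 7173 kept cells, thus held 80.8%, 91.5% and 86.9% of all Sox9 UMIs of kept cells. A small cluster of cycling cells held a further 15.6% in mouse 1, from 2 of its 12 cells there, and 0.316% and 1.79% in mice 2 and 3. After scaling by TMM, which corrects for RNAs such as hormones that fill a class, Sox9 averaged 250.6 ± 25.8 CPM in duct-like cells (SD, n = 3), against 28.6 ± 34.5 in acinar-like, 6.42 ± 2.01 in delta-like, 1.56 ± 0.776 in gamma-like, 0.534 ± 0.405 in alpha-like and 0.277 ± 0.118 in beta-like cells. The log2 difference from beta-like cells was 9.65 (SE 0.37, edgeR adjusted p = 2.51e-11) and that from delta-like cells was 5.13 (SE 0.25, adjusted p = 4.93e-10). Duct-like values overlapped those of no other class. The delta-like values also lay above all gamma-like, alpha-like and beta-like ones, while alpha-like and beta-like ranges overlapped, and so did those of acinar-like and delta-like cells.

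Onecut1, which acts in liver as well as pancreas, gave 75, 111 and 110 UMIs in duct-like cells of mice 1, 2 and 3, or 59.0, 60.2 and 63.1 CPM. The delta-like cells of all 3 mice had 0 UMIs among 10919754, and the beta-like, alpha-like and gamma-like cells together had 2, 2 and 1. Against a floor of 3 UMIs over the delta-like class, Onecut1 was at least 222-fold higher in duct-like cells. The ratio of pooled CPM was 1091 against beta-like cells, with a 95% counting interval of 299 to 9047, 977 against alpha-like cells, with an interval of 268 to 8109, and 48.2 against acinar-like cells, with an interval of 21.9 to 132. Scaled levels in duct-like cells differed little between mice, at 26.1 ± 0.743 CPM, against 4.84 ± 4.19 in acinar-like cells (SD, n = 3 each). The ratios and the 222-fold limit above use CPM before TMM scaling, and in scaled levels the gap from acinar-like cells was smaller. All such intervals and floors reflect the error of counting UMIs and nothing else.

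Onecut2 gave 50, 107 and 260 UMIs in duct-like cells of mice 1, 2 and 3, or 39.4, 58.1 and 149 CPM, so mouse 3 stood above the others. Scaled levels were 34.4 ± 22.4 CPM in duct-like cells, against 10.8 ± 1.19 in alpha-like, 4.82 ± 2.23 in gamma-like, 2.83 ± 1.20 in beta-like and 1.67 ± 0.593 in delta-like cells (SD, n = 3 each). The lowest duct-like mouse, at 17.6, was above the highest alpha-like mouse, at 11.9. The log2 difference between duct-like and alpha-like cells was 1.70 (SE 0.31, edgeR adjusted p = 0.000414), against 4.70 (SE 0.48, adjusted p = 2.44e-06) between duct-like and delta-like cells. Duct-like cells held 28.9%, 35.3% and 40.6% of the Onecut2 UMIs of kept cells in mice 1, 2 and 3, against 35.3%, 29.0% and 41.3% in alpha-like cells, so that duct-like cells held fewer than alpha-like cells in mice 1 and 3 and more in mouse 2. Onecut2 was thus the only one of the 5 whose next class after duct-like cells was alpha-like, above every gamma-like, beta-like and delta-like value.

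Onecut2 was lower in delta-like than in alpha-like cells by a log2 difference of -3.00 (SE 0.52, edgeR adjusted p = 0.000586). It was also lower in beta-like than in alpha-like cells, at -1.82 (SE 0.40, adjusted p = 0.00279). It was the 1 factor called in beta-like against alpha-like cells, where 23.6% of all genes were called lower and 21.9% higher. The alpha-like cells with an Onecut2 UMI had 42.6% to 45.0% Gcg, the glucagon RNA, and 111 to 196 CPM of summed duct markers, against 43.1% to 45.6% and 138 to 177 CPM in alpha-like cells without one. The ranges overlapped on both measures. Cells with a UMI were deeper, with median depths of 41395, 29644 and 22159 UMIs in mice 1, 2 and 3, against 27241.5, 19417 and 18365.5.

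Ehf gave 389, 551 and 754 UMIs in duct-like cells of mice 1, 2 and 3 and 374, 558 and 1831 in delta-like cells. In CPM of all UMIs these were 306, 299 and 432 in duct-like cells, against 209, 217 and 279 in delta-like cells, where hormone RNA took 28.8%, 28.0% and 29.0% of the UMIs. The plain CPM did not overlap between the classes, but per 1e6 UMIs other than hormone UMIs they did, with 320.4, 309 and 437 in duct-like cells, against 294, 301 and 393 in delta-like cells. Scaled levels were 148 ± 22.4 CPM in duct-like and 132 ± 13.5 CPM in delta-like cells (SD, n = 3 each), and the ranges overlapped. Within each of the 3 mice the duct-like value was the higher one, at 137, 132 and 173 CPM, against 123, 125 and 147 CPM in delta-like cells. The log2 difference was 0.15 (SE 0.25, 95% interval -0.40 to 0.71, edgeR adjusted p = 0.619). All other classes were lower than these, with 33.9 ± 21.8 CPM in acinar-like, 17.4 ± 14.5 in gamma-like, 13.95 ± 1.61 in alpha-like and 7.96 ± 3.94 in beta-like cells.

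Ehf was 17.4-fold higher in delta-like than in beta-like cells (log2 4.12, SE 0.32, edgeR adjusted p = 1.03e-06) and 9.30-fold higher than in alpha-like cells (log2 3.22, SE 0.29, adjusted p = 3.91e-06). Sox9 was likewise higher in delta-like than in beta-like cells (log2 4.53, SE 0.64, adjusted p = 6.48e-05) and than in alpha-like cells (log2 4.27, SE 0.57, adjusted p = 4.18e-05), at a far lower level. These were 2 of the 5 factors, where 22.2% of all genes were called higher in delta-like than in beta-like cells and 18.4% than in alpha-like cells. Elf3 was lower in delta-like than in beta-like cells (log2 -0.87, adjusted p = 0.00121), a sign that turned with library size alone (0.36, adjusted p = 0.142), and than in alpha-like cells (log2 -0.79, adjusted p = 0.00265). Of all genes tested, 20.9% were called lower in delta-like than in beta-like cells and 19.1% than in alpha-like cells. Both Elf3 calls were lost without the mouse as a block, at -0.74 and -0.74 with edgeR adjusted p = 0.0768 and 0.0847, and the call against alpha-like cells also without mouse 3 (-0.72, adjusted p = 0.132).

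Delta-like cells with an Ehf UMI had the delta hormone at a high level, with Sst at 19.2%, 17.4% and 21.9% of UMIs in mice 1, 2 and 3, against 6.94%, 14.5% and 11.2% in delta-like cells without one. Cells with one were deeper, with median depths of 17514, 11066 and 11525.5 UMIs in mice 1, 2 and 3, against 4167, 3405.5 and 3345 in cells without one. Spp1 stood at 57.5, 74.99 and 38.5 CPM in delta-like cells with an Ehf UMI, against 696, 15.1 and 27.1 CPM in those without, and at 15121, 18555 and 19339 CPM in duct-like cells. Of the 8 duct markers, Krt19 was at most 1.68 CPM and Mmp7 at 0 UMIs in delta-like cells of each mouse, and the summed level of all 8 was 448 to 502 CPM in delta-like cells, against 17456 to 21933 CPM in duct-like cells. Tspan8 stood at 51.9, 106 and 94.0 CPM in duct-like cells of mice 1, 2 and 3, against 119, 163 and 154 CPM in delta-like cells, and was the higher in delta-like cells of each mouse. Krt7 stood at 105, 116 and 225 CPM in duct-like cells, against 71.0, 94.1 and 112 CPM in delta-like cells. The part of duct RNA in the delta-like Ehf level was not tested.

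Sox9 in delta-like cells was found in 11, 15 and 73 cells of mice 1, 2 and 3, with at most 10 UMIs in a cell. These cells held Sst at 15.5%, 12.4% and 20.5% of UMIs, against 18.1%, 18.03% and 20.04% in delta-like cells without a Sox9 UMI. Their summed duct markers were 831, 761 and 504 CPM, against 458, 425 and 441 CPM without. Both measures differed most in mice 1 and 2, and their part in the Sox9 level was not tested.

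Elf3 gave 40, 57 and 127 UMIs in duct-like cells of mice 1, 2 and 3, or 31.5, 30.9 and 72.8 CPM, with mouse 3 again above the others. Scaled levels were 19.0 ± 8.83 CPM in duct-like cells, against 9.09 ± 3.76 in gamma-like, 7.99 ± 4.93 in acinar-like, 7.22 ± 1.75 in beta-like, 7.004 ± 2.05 in alpha-like and 4.11 ± 1.05 in delta-like cells (SD, n = 3 each). The differences were the smallest among the 5 factors against beta-like, alpha-like and gamma-like cells, with log2 values of 1.37 (SE 0.19, edgeR adjusted p = 4.47e-09), 1.44 (SE 0.18, adjusted p = 6.36e-10) and 1.29 (SE 0.25, adjusted p = 1.19e-05). The call against gamma-like cells was lost without mouse 3, at a log2 difference of 0.996 and edgeR adjusted p = 0.113. Duct-like values lay above those of every other class, while the other 5 classes overlapped with their neighbours in the order given. Beta-like and alpha-like cells were not told apart (log2 0.08, 95% interval -0.30 to 0.45, adjusted p = 0.772).

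Acinar-like cells gave the least certain comparison. In mouse 2 they held 46 Sox9 UMIs (16.6 CPM), against 1 (0.619 CPM) in mouse 1 and 2 (5.72 CPM) in mouse 3, and of these 46 most came from 1 cluster of 55 cells that was found in mouse 2 alone. That cluster stood at 116 CPM of Sox9, with 5596 CPM of Spp1 and 17212 CPM of Sst, against 1.37 CPM of Sox9, 2.97 of Spp1 and 151 of Sst in the other acinar-like cluster of 103 cells. The part of these duct and delta transcripts in the Sox9 value was not tested.

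With both clusters, Sox9 was higher in duct-like than in acinar-like cells by a log2 difference of 2.61 (SE 0.36, edgeR adjusted p = 9.33e-05). Without the mouse 2 cluster, and without a beta-like cluster described below, it was 5.15 (SE 0.35, adjusted p = 1.60e-17). Onecut1 had 6 UMIs in acinar-like cells, and its ratio stands with its other values above. Onecut2 had 2 UMIs there, and the ratio of pooled CPM before TMM scaling was 204, with a counting interval of 56.0 to 1687. The Onecut2 and Ehf differences, 4.18 (SE 1.22, adjusted p = 0.0247) and 1.76 (SE 0.51, adjusted p = 0.0255), lost their calls without mouse 1 (adjusted p = 0.0831 and 0.221), and that of Onecut2 also without mouse 2 (adjusted p = 0.148). Elf3 did not pass the test, at 0.77 (SE 0.44, 95% interval -0.12 to 1.65, adjusted p = 0.200). These scaled values rest on TMM factors of 0.175 to 0.401 for acinar-like and 2.24 to 2.51 for duct-like sums, and with library size alone the differences were 5.92, 7.34, 5.07 and 3.98 for Sox9, Onecut2, Ehf and Elf3.

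Among beta-like cells, 1 cluster of 23 cells (7, 16 and 0 in mice 1, 2 and 3) held Ehf at 42.0 CPM, in 91.3% of its cells, and Sst at 31386 CPM. The other 3 beta-like clusters held 2.42 to 3.79 CPM of Ehf and 230 to 1389 CPM of Sst. Without that cluster and the acinar-like one of mouse 2, the log2 difference of Ehf was 5.27 (SE 0.20) between duct-like and beta-like cells and 5.11 (SE 0.20) between delta-like and beta-like cells, against 4.27 (SE 0.33) and 4.12 (SE 0.32) with them. Ehf was then called lower in beta-like than in alpha-like cells (log2 -1.88, edgeR adjusted p = 9.89e-07), against -0.90 and adjusted p = 0.0734 with them. Whether this cluster holds mixed droplets was not tested.

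Detection was compared after each cell was thinned at random to 2000 UMIs, since a deeper cell shows more genes, and cells below that depth were left out. The 2000 UMIs include hormone UMIs. These took 67.2% to 71.5% of UMIs in beta-like, 52.2% to 53.9% in gamma-like and 44.6% to 47.4% in alpha-like cells. In delta-like cells they took 28.0% to 29.0%, against 1.20% to 4.44% in duct-like cells. These shares are of UMIs summed over cells, in which deep cells weigh more. In duct-like cells under 5000 UMIs, Ins2 alone stood at 110427, 61195 and 25318 CPM in mice 1, 2 and 3. By the summed shares, endocrine cells kept fewer UMIs of other genes than duct-like cells, here and in the counts of factors per cell below. A Sox9 UMI was then found in 33.3%, 39.0% and 58.3% of duct-like cells of mice 1, 2 and 3, and an Ehf UMI in 32.1%, 33.1% and 64.2%. In delta-like cells these were 2.86%, 2.43% and 3.08% for Sox9 and 31.4%, 33.0% and 41.2% for Ehf. Ehf was thus found in close shares of duct-like and delta-like cells in mice 1 and 2, and in more of the duct-like cells in mouse 3. Endothelial-like and macrophage-like cells, with median depths of 4833 and 7010 UMIs against 6439 in duct-like cells, served as background classes, with 1 and 0 cells with Sox9 and 2 and 0 cells with Ehf among 343 and 157.

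**Figure D2:**
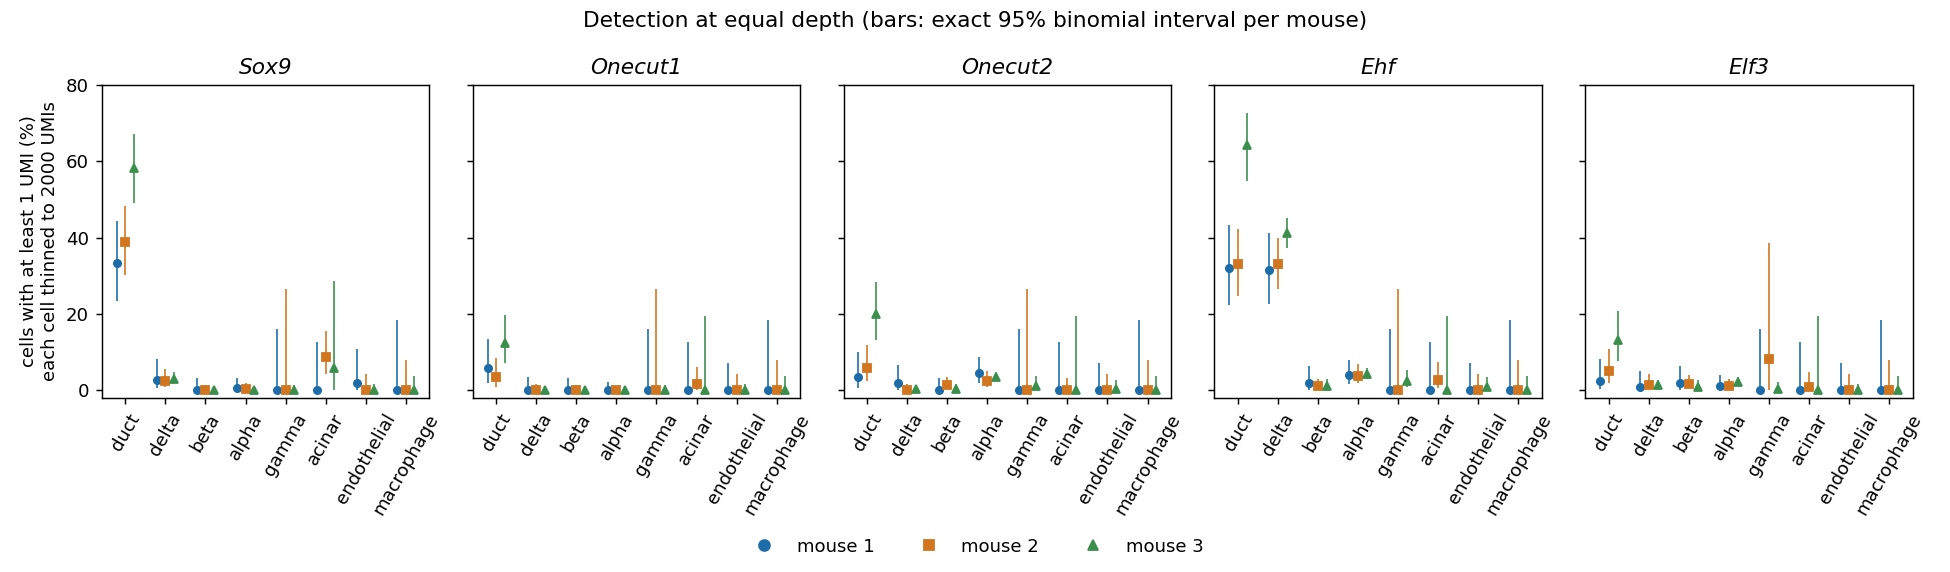
Percent of cells with at least 1 UMI of each factor after thinning to 2000 UMIs per cell, with 1 symbol per mouse and exact 95% binomial intervals, in 6 pancreatic classes and 2 background classes. Sox9 reaches 33.3% to 58.3% in duct-like cells and is near 0 in beta-like and alpha-like cells, while Ehf is at 31.4% to 41.2% in delta-like cells.

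The other 3 factors were seen in few cells at this depth. Onecut1 was found in 24 of 322 duct-like cells (5.95%, 3.39% and 12.5% in mice 1, 2 and 3), against 0 of 928 delta-like cells, which allows a share of cells with a UMI at this depth of up to 0.323%, and 0 of 723 beta-like cells, which allows up to 0.415%. These limits take 3 counts over the cells of all mice, and say nothing of cells whose transcripts were missed. Onecut2 was found in 3.57% and 5.93% of duct-like cells of mice 1 and 2 and in 24 of 120 cells of mouse 3, a mean of 9.83% ± 8.88 (SD, n = 3), against 3.48% ± 1.06 of alpha-like and 0.743% ± 1.02 of delta-like cells. Elf3 was found in 2.38%, 5.08% and 13.3% of duct-like cells of mice 1, 2 and 3, a mean of 6.93% ± 5.71, against 1.503% ± 0.518 of beta-like, 1.48% ± 0.658 of alpha-like and 1.29% ± 0.292 of delta-like cells. Endothelial-like cells showed Onecut1 in 0, Onecut2 in 1 and Elf3 in 0 of 343 cells, and macrophage-like cells none of the 3 in 157.

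Without thinning, the shares rose with depth. Sox9 was then found in 51.5%, 58.1% and 92.1% of duct-like cells, against 10.2%, 6.98% and 10.9% of delta-like cells. Elf3 was found in 17.5%, 18.2% and 52.8% of duct-like cells, against 21.2%, 21.5% and 23.1% of beta-like cells, so that in mice 1 and 2 the deeper beta-like cells showed the higher share while their CPM was lower. No order is read from those shares.

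Duct-like cells differed in depth, and the factors differed with it. Cells under 5000 UMIs numbered 58, 88 and 17 in mice 1, 2 and 3, and held Sox9 at 147, 160.1 and 352 CPM, while the 19, 28 and 40 cells with 15000 or more UMIs held 574, 752 and 656 CPM. Every one of the deep cells had a Sox9 and an Ehf UMI. Ins2, an insulin gene that duct cells do not make, stood at 110427, 61195 and 25318 CPM in the shallow cells, against 5902, 3854 and 2668 CPM in the deep ones. Spp1 stood at 9770, 8733 and 17817 CPM in shallow and 15595, 20832 and 18831 CPM in deep cells. Sox9 and Spp1 were lowest, and Ins2 highest, in the shallow range of all 3 mice, while Spp1 was highest in the middle range of mice 1 and 3. The part of Ins2 in the lower Sox9 values was not tested.

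**Figure D3:**
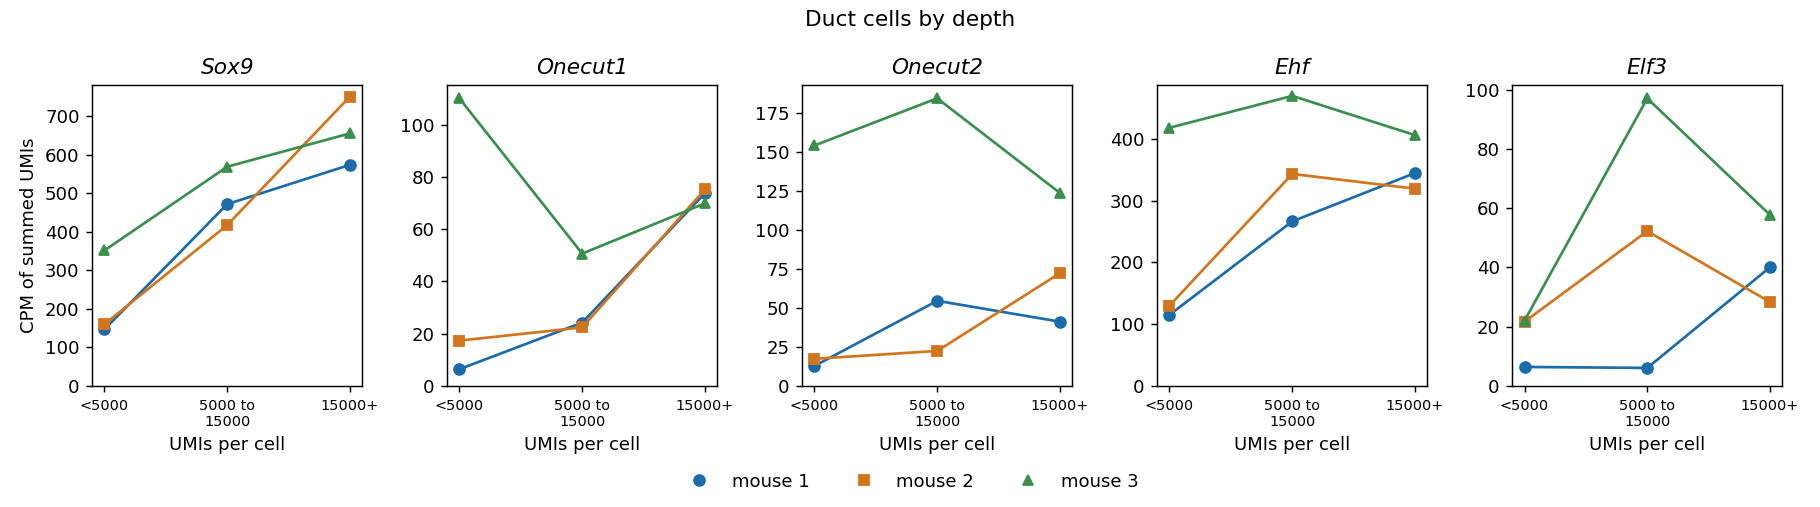
Level of each factor in duct-like cells of 3 depth ranges, as CPM of summed UMIs, with 1 line per mouse. Sox9 is at 147 to 352 CPM under 5000 UMIs per cell and at 574 to 752 CPM from 15000 UMIs, and the lowest range of mouse 3 holds 17 cells.

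Onecut1 followed the same order in mice 1 and 2, with 6.39 and 17.3 CPM in shallow and 73.8 and 75.2 CPM in deep duct-like cells, while mouse 3 had 110 CPM in its 17 shallow cells and 69.9 CPM in its deep cells. Onecut2 in mouse 3 was above the other mice in every range, at 154, 184 and 124 CPM by depth, against 12.8, 54.5 and 41.1 CPM in mouse 1 and 17.3, 22.4 and 72.2 CPM in mouse 2. Cells were placed in ranges and not matched in depth, so the part of depth in this difference between mice was not tested. Elf3 in mouse 3 was above the others at 5000 to 15000 UMIs (97.0 against 6.05 and 52.2 CPM) and at 15000 UMIs or more (57.7 against 40.0 and 28.3 CPM). Below 5000 UMIs the 17 cells of mouse 3 held 45462 UMIs in all, so a single UMI there makes 21.996 CPM.

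With cells thinned to 2000 UMIs, most duct-like cells showed at least 1 of the 5 factors, and mouse 3 alone showed at least 2 in most of them. With cells thinned to 5000 UMIs, at least 2 were found in 74.4%, 71.7% and 91.8% of duct-like cells of mice 1, 2 and 3. Only 39, 60 and 110 duct-like cells reached that depth, against 84, 118 and 120 at 2000 UMIs. The 2 depths thus differ in the cells they hold as well. At 2000 UMIs the mean number detected was 0.774, 0.864 and 1.68 per duct-like cell in mice 1, 2 and 3, against 0.371, 0.369 and 0.460 per delta-like cell. At least 2 factors were found in 16.7%, 22.03% and 57.5% of duct-like cells, with exact 95% binomial intervals of 9.42% to 26.4%, 14.9% to 30.6% and 48.1% to 66.5%, against 0.952%, 0.971% and 2.27% of delta-like cells. No beta-like cell among 723 and no gamma-like cell among 270 had UMIs of 2, which allows shares of such cells at this depth of up to 0.415% and 1.11%. No duct-like cell showed all 5 at this depth, while 7, 9 and 24 did with all their UMIs. Duct-like cells of mouse 3 stood above the others in each of these counts, and the mean share with at least 2 factors was 32.1% ± 22.2 over 3 mice and 19.4% without mouse 3. Duct-like cells of mouse 3 also held less hormone RNA, at 1.20% of summed UMIs against 4.44% and 3.21% in mice 1 and 2. Fewer of them were shallow, with 58, 88 and 17 cells under 5000 UMIs among all duct-like cells of mice 1, 2 and 3. The parts of both in the counts were not tested.

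**Figure D4:**
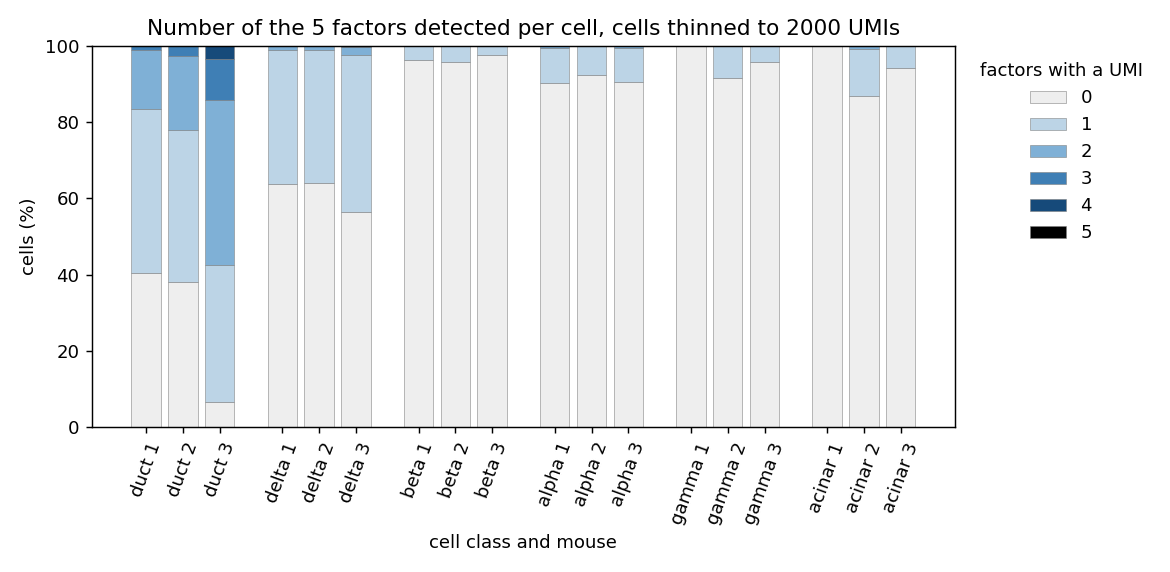
Share of cells by the number of the 5 factors with a UMI, after thinning to 2000 UMIs per cell, for each class and mouse. At least 1 factor is found in 59.5%, 61.9% and 93.3% of duct-like cells of mice 1, 2 and 3, and delta-like cells mostly show 1 or none.

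Pairs of factors were found together in duct-like cells about as often as their separate shares give. At 2000 UMIs, Sox9 and Ehf were both found in 71 of 322 duct-like cells, where the product of the shares within each mouse gives 69.1. For Sox9 and Onecut1 the values were 12 and 12.0 cells, for Onecut1 and Ehf 14 and 12.6, for Onecut2 and Ehf 18 and 18.7, and for Ehf and Elf3 11 and 12.9. Without thinning all 10 pairs were found together more often than the product, such as Sox9 and Ehf in 212 of 372 cells against 179, and Onecut1 and Onecut2 in 63 against 41.3. The counts without thinning also hold cells below 2000 UMIs, and the parts of depth and of those cells in the excess were not tested.

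**Figure D5:**
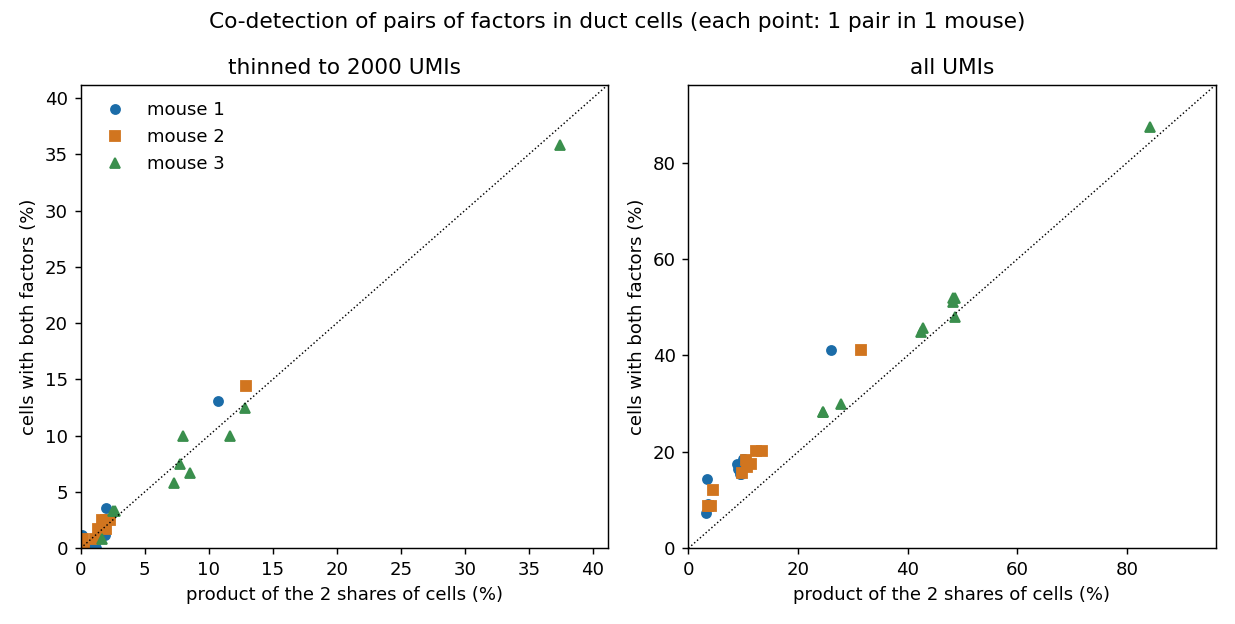
Percent of duct-like cells with both factors of a pair against the product of the separate percents, for 10 pairs in 3 mice, thinned to 2000 UMIs (left) and with all UMIs (right); the dotted line marks equality. The thinned points scatter around the line, and with all UMIs most lie above it.

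In delta-like cells thinned to 2000 UMIs, only the pair of Sox9 and Ehf was found together in more than 5 cells. It was found in 12 of 928 cells, where the product gives 10.4. At 5000 UMIs it was found in 26 of 686 cells, where the product gives 28.0. Ehf and Elf3 were then found together in 15, against 16.0, and Onecut2 and Ehf in 7, against 6.65. With all UMIs, Sox9 and Ehf were found together in 90 of 990 cells, where the product gives 72.3. Ehf and Elf3 were then found together in 63, against 57.6, Onecut2 and Ehf in 16, against 17.6, and Sox9 and Elf3 in 8, against 8.08.

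Across the 18 sums of 3 mice and 6 classes, the genes whose log2(CPM + 1) ran closest to each factor were named as a description, since the sums share mice and classes. For Sox9 they were Dbi (Pearson r = 0.98), Selenbp1 (0.98) and Cracr2b (0.97). For Onecut1 they were Sctr (0.997), the secretin receptor of duct cells, Ephb4 (0.99) and Sult1a1 (0.99). Ehf, high in both duct-like and delta-like cells, ran closest to Dnajc22 (0.98), Adgrl2 (0.97) and Ctsh (0.96). Onecut2 ran closest to Lhpp (0.94), Tmem140 (0.94) and Ppp2r2b (0.94), and Elf3 to Mafk (0.97), Raly (0.95) and Map1lc3b (0.95). Among the factors themselves r was highest for Sox9 and Onecut1 (0.92) and lowest for Onecut1 and Ehf and for Onecut2 and Ehf (0.60 each).

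Other transcription factors of the duct and the pancreatic progenitor followed the 5. Of 12 tested, 11 were higher in duct-like than in beta-like cells, 10 than in alpha-like, 10 than in delta-like, 9 than in gamma-like and 7 than in acinar-like cells, with median log2 differences of 3.19, 2.88, 2.33, 2.49 and 1.78 against -0.02, -0.06, -0.02, -0.00 and 0.27 over all genes. Of all genes, 32.1%, 29.8%, 30.1%, 25.2% and 14.9% were higher in the same order, and 33.2%, 33%, 31%, 26.5% and 12.4% lower. Foxa2 was lower in duct-like than in beta-like cells (log2 -0.38, and 1.27 with library size alone) and Id3 lower than in alpha-like cells, and no other was lower. Gata6, a zinc-finger factor of pancreas formation, differed between the endocrine classes, with 84.9 ± 5.21 scaled CPM in duct-like, 59.3 ± 4.92 in gamma-like, 45.1 ± 8.49 in alpha-like, 16.8 ± 3.60 in delta-like and 3.31 ± 0.947 in beta-like cells (SD, n = 3 each). Nr5a2, a nuclear receptor of acinar and duct cells, stood at 43.0 ± 3.30 CPM in duct-like and 35.9 ± 13.2 in acinar-like cells, against 2.34 ± 0.323 in delta-like and 0.292 ± 0.317 in beta-like cells. Grhl2, which controls epithelial junction genes, stood at 19.2 ± 1.34 CPM in duct-like cells, against 0.624 ± 0.286 in delta-like and 0.0699 ± 0.121 in beta-like cells. Grhl2 passed the filter on low counts only because of its duct-like sums, so that its calls were set by that filter.

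In the Ets family, 12 of 17 further genes were tested, and 8 were higher and 2 lower in duct-like than in beta-like cells, 7 and 1 than in delta-like, 6 and 1 than in alpha-like, 8 and 1 than in gamma-like and 6 and 1 than in acinar-like cells. Of all genes, 32.1%, 30.1%, 29.8%, 25.2% and 14.9% were higher in the order given, and 33.2%, 31%, 33%, 26.5% and 12.4% lower. The list's median log2 differences were 0.68, 0.55, 0.62, 0.85 and 1.38 in the order given, against -0.02, -0.02, -0.06, -0.00 and 0.27 over all genes. Elk3, lower than in beta-like cells (log2 -0.61), was higher with library size alone (1.02). Ets1 stood at 11.3 ± 4.51 scaled CPM in duct-like cells, against 0.507 ± 0.402 in delta-like and 0.0972 ± 0.105 in beta-like cells (SD, n = 3 each). Etv4, a target of growth factor signals, stood at 7.47 ± 2.50 CPM in duct-like cells and at 0 UMIs in beta-like and alpha-like cells. Ets1 and Etv4 passed the filter on low counts only because of their duct-like sums, so that their calls were set by that filter. Ets2 and Etv6 were higher by 1.53 and 2.04 on the log2 scale against beta-like cells (SE 0.15 and 0.22, edgeR adjusted p = 1.97e-13 and 4.24e-12). Etv1 went the other way, with 6.19 ± 1.16 CPM in duct-like cells, against 254 ± 4.16 in alpha-like, 235 ± 15.7 in gamma-like and 121 ± 15.5 in delta-like cells. Etv1 was the 1 Ets gene called lower in duct-like cells in all 5 comparisons, and with library size alone its sign turned against beta-like (0.56) and acinar-like cells (1.88).

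Of 14 further Sox and Onecut genes, 4 passed the filter. Sox4, Sox5 and Sox6 were higher in duct-like cells in all 5 comparisons, and Sox12 was lower in the 4 with endocrine classes, a sign that turned against beta-like cells with library size alone (log2 -1.46 and 0.18). Of all genes, 32.1%, 29.8%, 30.1%, 25.2% and 14.9% were higher than in beta-like, alpha-like, delta-like, gamma-like and acinar-like cells. The shares of lower genes were 33.2%, 33%, 31%, 26.5% and 12.4%. Sox4, which acts in endocrine and duct development, stood at 239 ± 22.5 scaled CPM in duct-like cells, against 45.3 ± 3.23 in delta-like and 58.3 ± 18.5 in beta-like cells (SD, n = 3 each). Sox5 stood at 40.9 ± 6.38 CPM in duct-like cells, against 5.47 ± 0.258 in delta-like and 0.305 ± 0.165 in beta-like cells. Sox12 stood at 2.64 ± 1.46 CPM in duct-like cells, against 5.73 ± 1.103 in delta-like and 7.59 ± 1.17 in beta-like cells.

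Genes of polycystic disease and of cilia held both higher and lower members. Of 10 tested, 2 were higher and 2 lower in duct-like than in delta-like cells, and 5 and 2 than in beta-like, 5 and 1 than in alpha-like, 4 and 1 than in gamma-like and 3 and 0 than in acinar-like cells. Of all genes, 30.1%, 32.1%, 29.8%, 25.2% and 14.9% were higher in the same order, and 31%, 33.2%, 33%, 26.5% and 12.4% lower. Both counts against delta-like cells lie below those shares. The list's median log2 differences were 0.27, 0.37, 0.52, 0.33 and 1.02 in the same order. Ift88, lower than in beta-like cells (log2 -0.48), was higher with library size alone (1.17). Pkhd1, the fibrocystin gene, was higher at 72.8 ± 9.03 scaled CPM in duct-like cells, against 4.01 ± 0.915 in delta-like and 1.88 ± 0.634 in beta-like cells (SD, n = 3 each). Bicc1, an RNA-binding protein of tubular epithelia, stood at 202 ± 19.6 CPM in duct-like cells, against 18.6 ± 1.70 in delta-like and 21.96 ± 2.31 in beta-like cells. Pkd1, the polycystin gene, was lower, at 7.35 ± 1.81 CPM in duct-like cells, against 38.5 ± 1.20 in delta-like and 24.5 ± 3.81 in beta-like cells (log2 -2.41 and -1.75, SE 0.19 and 0.20, edgeR adjusted p = 1.64e-15 and 6.14e-11).

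Genes of duct junctions and fluid transport were nearly all higher in duct-like cells. Of 11 tested, 11 were higher than in beta-like, alpha-like and gamma-like cells, 10 than in delta-like and 10 than in acinar-like cells, and 0 were lower, with median log2 differences of 2.88, 2.80, 2.62, 2.81 and 1.60. Of all genes, 32.1%, 29.8%, 25.2%, 30.1% and 14.9% were higher in the same order, and 33.2%, 33%, 26.5%, 31% and 12.4% lower. Their medians were -0.02, -0.06, -0.004, -0.02 and 0.27. Car2, Aqp5, Sctr and Ano1 passed the filter on low counts only because of their duct-like sums, so that their calls were set by that filter. Cldn3, a tight junction claudin, stood at 332 ± 26.4 scaled CPM in duct-like cells, against 38.4 ± 2.82 in delta-like and 21.6 ± 4.97 in beta-like cells (SD, n = 3 each). Car2, the carbonic anhydrase that supplies bicarbonate, stood at 24.5 ± 7.20 CPM in duct-like cells, against 0.0268 ± 0.0465 in delta-like and 0.0275 ± 0.0477 in beta-like cells. Aqp5, a water channel, stood at 21.8 ± 7.16 CPM in duct-like cells, against 0.110 ± 0.190 in delta-like cells and 0 UMIs in beta-like cells. Ano1, a chloride channel, stood at 20.4 ± 3.36 CPM in duct-like and 14.9 ± 7.25 in acinar-like cells, against 0.132 ± 0.0679 in beta-like cells.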

How the data were processed

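The authors deposited, per library, a matrix of counts, that is whole numbers of UMIs per gene and barcode. Cell Ranger 2.2 and mm10 stand in the submitters' processing notes, and version 3.1.0 in the matrix headers; how barcodes were selected is not given in the sources used here. Cells needed 500 detected genes and no more than 15% of UMIs from mitochondrial genes, and then the highest Scrublet scores were removed as doublets, at 0.8% per 1000 barcodes (55, 96 and 166 cells; scanpy 1.11.5). Leiden clusters (resolution 1) used 20 principal components of genes that exclude the 5 factors. To take a class's name, a cluster needed at least 3 markers of that class among its 30 leading genes, more than of any other class, with 1 or more in its first 10, and at least 3 markers that were found in 10% of its cells and stood 2-fold or more above all other cells. Clusters with 3 or more mitochondrial or rRNA-linked genes among their first 10 stayed unnamed, a rule set after the clusters were seen. It left out 531 cells with beta markers (174, 283 and 74 in mice 1, 2 and 3) and 329 with acinar markers (35, 289 and 5). In all 2227 cells stayed unnamed.

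Sums of UMIs by class and mouse (minimum 10 cells) gave 18 columns for 1 quasi-likelihood fit in edgeR 4.0.16 (R 4.3.3), with filterByExpr, TMM scaling and robust dispersions. The mouse was a block because classes share the animals, and p-values were adjusted over all genes tested by Benjamini-Hochberg (FDR 0.05). Deviations from class means over 3399 genes correlated at a median of 0.379 between sums of the same mouse (45 pairs) and -0.104 between other sums (90 pairs). SDs and scaled CPM are over the 3 mice. TMM corrects for RNAs that fill a class and sets levels between classes, so acinar-like and beta-like levels depend on it. DESeq2 1.42.0, other scalings, cell filters, clusterings and depths were tried. Gene lists name, by rule, up to 4 genes past the test against beta-like, alpha-like and delta-like cells in 1 direction, by smallest p against beta-like cells; 1 gene that this rule names is not reported here. The 5 factors and the lists were chosen with earlier results of these data known. The fit was tested on simulated data. Coordinates come from GENCODE M21.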

Additional observations from a re-analysis of the deposited data

Results flagged for a closer look

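Cells outside the 6 classes were set against endothelial-like and macrophage-like cells, thinned alike to 2000 UMIs, to look for signal that the comparisons leave out. Cycling cells, a cluster named by cell cycle genes, held Sox9 in 9.30% of 43 cells and Ehf in 9.30%, against 0.200% and 0.400% of 500 endothelial-like and macrophage-like cells. These are 4 cells each, with exact 95% binomial intervals of 2.59% to 22.1%. Unnamed cells held Onecut2 in 2.15% of 1949 cells and Ehf in 3.44%, with intervals of 1.56% to 2.90% and 2.67% to 4.35%, against 0.200% and 0.400% in the same 500 cells. Each was listed because its interval lies above that of the background cells. These intervals pool the cells of all mice and count cells, not mice, so they are a rule for listing and not a test. No group had 4 or more samples, so no outlying mouse was looked for.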

How the results depend on the processing

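Over 18 alternatives, 589 log2 differences of the factors kept direction and side of the threshold, 11 lost and 8 gained a call, and 2 changed sign. Both of these came with library size alone, with Onecut2 at 0.0609 and Elf3 at 0.36 in delta-like against beta-like cells, where TMM gave -1.18 and -0.87. That scaling moved the median of all genes by up to 3.51 (duct-like against acinar-like cells), and its calls of higher and lower genes were 10436 and 328 in delta-like against beta-like cells, against 2650 and 2490 with TMM; RLE size factors gave 3275 and 2011, and 2706 and 1719 against 2193 and 2280 with TMM in delta-like against alpha-like cells. In duct-like against delta-like, beta-like, alpha-like, gamma-like and acinar-like cells library size alone split 5413 to 2379, 9567 to 1007, 8396 to 1331, 8314 to 1137 and 10817 to 148, where TMM split 3591 to 3700, 3825 to 3957, 3559 to 3938, 3001 to 3164 and 1773 to 1478; in delta-like against alpha-like and beta-like against alpha-like cells it split 7941 to 586 and 879 to 7372 (2616 to 2816 with TMM in the second). Cells thinned to 2000 UMIs left 3758 genes and 2 of the factors tested, Sox9 and Ehf, with splits of 1049 to 879, 981 to 808, 1052 to 706, 775 to 483 and 283 to 122 over all genes in those 5 comparisons and 389 to 378, 517 to 301 and 474 to 335 in the other three, and 1, 2, 2, 2 and 1 calls in duct-like against delta-like, beta-like, alpha-like, gamma-like and acinar-like cells, 2 in delta-like against alpha-like and 0 in beta-like against alpha-like cells. The count in duct-like against acinar-like cells was 2 when cells needed 1000 genes, and 2 to 4 with 1 mouse left out. In beta-like against alpha-like cells it was 2, with Ehf added, with at most 10% mitochondrial UMIs, at least 5000 UMIs per cell, clusters from the 2000 most variable genes, and without the 2 clusters that hold Spp1 or Sst of another class, and it was 3 with library size alone. Without the replicate block, 4, 5, 5, 5 and 4 factors were called against the same 5 classes as with it, and delta-like against beta-like and alpha-like cells lost Elf3 (2 and 3 calls). The mean number of factors per duct-like cell was 2.32 at 5000 UMIs and 2.22 without thinning, and the share with at least 2 was 79.3% and 60.9%; leaving out 1 mouse each gave 0.819 to 1.27 and 19.4% to 39.8%. The values at 5000 UMIs and without thinning rest on 209 and 372 duct-like cells, against 322 at 2000 UMIs. With clusters led by mitochondrial or rRNA genes named, Elf3 passed in duct-like against acinar-like cells (log2 1.49, adjusted p = 0.00167). These 2 choices of clusters were made after seeing the data, and the cause of each change was not tested. Counts of all genes called also moved by over 1.5 times in duct-like against acinar-like cells without mouse 1 (1146 higher and 1179 lower), without mouse 2 (1148 and 956) and with the clusters led by mitochondrial or rRNA genes named (2132 and 2512, against 1773 and 1478), in delta-like against alpha-like cells by DESeq2 (1447 lower, against 2280), and in duct-like against gamma-like cells without mouse 3 (1929 and 1882, against 3001 and 3164). Of the percents of cells, 363 stayed within the spread of mice and 117 moved. At 2000 UMIs few cells hold a UMI of Onecut1, Onecut2 or Elf3, which limits their co-detection.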
